A study of Mus musculus with 2 samples.

Results

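The cells described here were the T and NK lymphocytes of mouse dorsal skin, 419 of the 17492 cells that passed the quality limits in 2 single-cell libraries. One library came from a wildtype C57BL/6J mouse and the other from an Eppk1 knockout (Eppk1-/-) mouse that had been backcrossed into C57BL/6J. Neither animal was treated, and age and sex were not given in the sources used here. Skin was dissociated with enzymes, fixed, and measured with a probe-based assay that counts unique molecular identifiers (UMIs, 1 per captured probe pair) for 19059 genes in each cell. Eppk1 encodes epiplakin, a plakin that binds keratin filaments in epithelial cells. Each genotype was 1 library (1 mouse), so no test between genotypes was possible: every interval below is a 95% interval for counting error, and the spread between mice is not known.

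Lymphocytes were chosen by measured values. A cell was kept when Cd3d, Cd3e, Cd3g, Il2rb and Nkg7 together gave at least 2 UMIs, the collagen and decorin genes Col1a1, Col1a2, Col3a1 and Dcn stayed under 2% of its UMIs, the keratinocyte genes Dsp, Perp, Sfn and Krt10 under 1%, and the complement genes C1qa, C1qb and C1qc of macrophages under 0.1%. Cd3d, Cd3e and Cd3g encode signalling chains of the T cell receptor complex, Il2rb a receptor chain for IL-2 and IL-15, and Nkg7 a protein of cytotoxic granules. The rule found 222 of 8875 wildtype cells (2.50%, exact binomial interval 2.19 to 2.85%) and 197 of 8617 Eppk1 knockout cells (2.29%, 1.98 to 2.62%). The intervals overlap. Lymphocytes held few transcripts: the median cell had 1899.5 UMIs in wildtype (range 504 to 15182) and 1756 in the knockout (537 to 14970), against 4963 and 5006 over all cells that passed. The median cell held 13 UMIs of the 5 genes in wildtype and 10 in the knockout. At the edge of the rule, 6 wildtype and 12 knockout cells had exactly 2 such UMIs, with medians of 1648.5 and 1342.5 UMIs in all, while the 27 and 21 cells just outside, with exactly 1, had medians of 6492 and 3381. The limits on other cell types removed a further 29 and 23 cells.

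T cells recognise antigen through a receptor made of either alpha and beta chains or gamma and delta chains, and NK cells kill without such a receptor. Mouse skin is known for its gamma-delta T cells. Dendritic epidermal T cells sit between keratinocytes, carry a nearly invariant gamma-delta receptor built from the V segment Tcrg-V5 and respond to stressed keratinocytes. Dermal gamma-delta T cells of the type 17 kind respond to IL-23 through its receptor and release IL-17. Alpha-beta T cells of the skin include regulatory T cells that express Foxp3, and group 2 innate lymphoid cells, which lack a T cell receptor, use Gata3 and release IL-5 and IL-13.

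The label held for T cells and less for NK cells. The constant region of the receptor delta chain, Trdc (GRCm38, 14:54142851-54148868, plus strand), gave at least 2 UMIs in 151 wildtype cells (68.0%) and 132 knockout cells (67.0%). The alpha constant region Trac (14:54220521-54224206, plus strand) did so in 63 and 40 cells. Cells with at least 2 UMIs of Trdc and none of Trac numbered 105 and 104. Those with at least 2 UMIs of Trac and none of Trdc numbered 36 and 30, and those with at least 2 of both 26 and 10. Gamma-delta T cells were therefore the larger kind by this count in both libraries. No UMI of any CD3 gene was found in 22 wildtype and 33 knockout cells, and 13 and 20 of these also lacked Trdc and Trac. To compare the libraries at 1 depth, each cell was thinned to 1000 UMIs, which left 196 and 179 cells. Trdc was then found in 65.8% and 64.8% of them, and Trac in 34.7% and 26.3%.

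Clustering of the 419 cells gave 4 clusters, and every cluster held cells of both libraries. A cluster was named only when markers of 1 kind were found in at least 25% of its cells and were not outnumbered among its 10 leading genes. The clustering read every gene of these cells, so the genes that set a cluster apart describe it and test nothing. Of the 3 clusters that could be named, the first was like dendritic epidermal T cells, the second like alpha-beta T cells and the third like type 17 lymphocytes. The remaining cluster held genes of several cell types and was left unnamed.

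**Figure D1:**
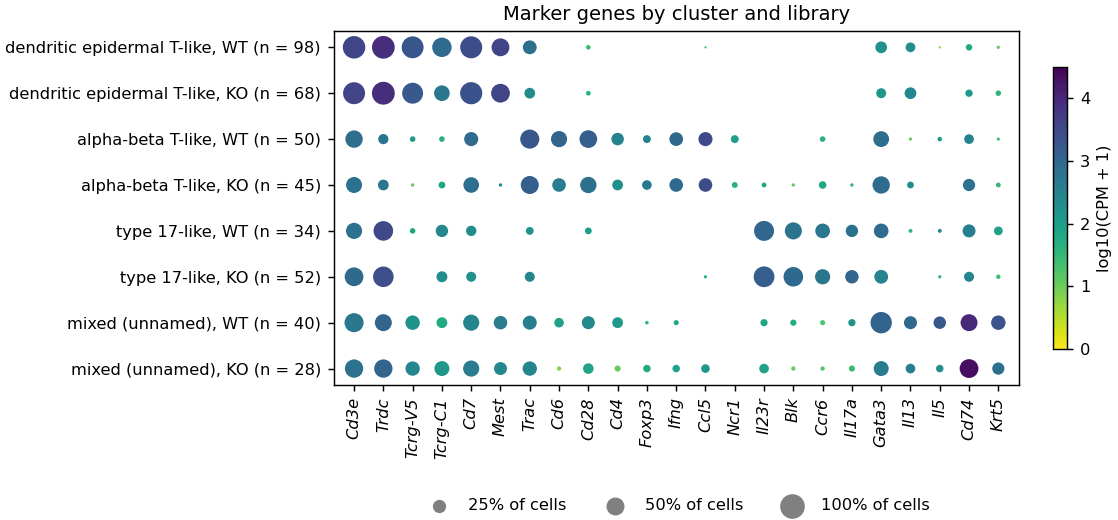
Marker genes (columns) in the 4 clusters of lymphocytes, split by library (rows; WT, wildtype; KO, Eppk1 knockout). Dot size is the percentage of cells with at least 1 UMI and color is log10 of CPM (UMIs per 1000000 UMIs of the cells summed) plus 1. Tcrg-V5 is found in most cells of the dendritic epidermal T-like cluster, Il23r and Blk mainly in the type 17-like cluster, and Cd74 and Krt5 are highest in the mixed cluster. The 4 knockout cells with many UMIs of B cell, plasma cell or mast cell genes are left out.

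The dendritic epidermal T-like cluster held 98 wildtype and 69 knockout cells, with Nid2, Avil, Mest and Tcrg-V5 among its leading genes. Nid2 encodes a basement membrane protein and Avil an actin-binding protein. Tcrg-V5 (13:19192278-19192725, plus strand) was found in 90 of 98 wildtype cells and 58 of 69 knockout cells, and in only 2 of 34 and 0 of 52 cells of the type 17-like cluster. Of the 12 measured dendritic epidermal T cell markers, 8 were found in at least 25% of the cluster's cells. The alpha-beta T-like cluster held 50 and 48 cells and was led by Ccl5, a chemokine of activated T cells and NK cells, Cd6 and Cd28, surface proteins that tune receptor signalling, Ctla4, an inhibitory receptor, and Tbx21 and Ifng, the transcription factor and cytokine of type 1 responses. Ighm, an antibody heavy chain, also led it because of 3 knockout cells described below. Foxp3 gave 26 UMIs in 6 wildtype cells and 43 UMIs in 8 knockout cells of this cluster. The type 17-like cluster held 34 and 52 cells and had among its leading genes Blk, a kinase of gamma-delta T cells that make IL-17, Il23r, Ccr6, a chemokine receptor, Cd163l1 and Il17a. Its cells mostly carried the delta chain, with at least 2 Trdc UMIs in 23 of 34 and 39 of 52 cells.

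NK cells did not form a cluster at this setting. At a higher resolution a group of 7 wildtype and 8 knockout cells, all of them from the alpha-beta T-like cluster, separated (3.15%, 1.28 to 6.39%, and 4.06%, 1.77 to 7.84%), led by Gzma, Ncr1, Eomes and Klra4, and 11 of the 15 NK markers were found in at least 25% of them. Gzma and Gzmb encode granzymes, the proteases of cytotoxic granules, Ncr1 an activating receptor and Eomes a transcription factor of NK cells. Within this group Gzma was at 8298 CPM in wildtype and 9256 CPM in the knockout, and Eomes at 1629 and 1638 CPM. Cd3e gave 2 UMIs in wildtype and 0 in the knockout. Much of the Ccl5 of the alpha-beta T-like cluster lay in these cells: of 280 and 282 UMIs, 77 and 46 were left without them. Ncr1 was found in 6 of 7 wildtype and 3 of 8 knockout cells, counts too small to set apart. Cd8a, the coreceptor of CD8 T cells, gave 2 and 10 UMIs over all lymphocytes, and Cd4 gave 55 and 19 UMIs in 24 and 12 cells. The granzyme genes Gzmd, Gzme, Gzmf, Gzmg and Gzmk and the cytokine Il4 gave 0 UMIs in all 419 cells, which allows a share of cells with a UMI of up to 0.716%.

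The unnamed cluster held 40 wildtype and 28 knockout cells. Its cells were larger, with medians of 4865.5 and 5569 UMIs, and together they held 40.2% and 37.2% of all lymphocyte UMIs. It was led by Csf2rb, Emilin2 and Fcgbp, and 13 of 15 keratinocyte markers were found in at least 25% of its cells, as were 8 of 12 dendritic epidermal T cell markers, 7 of 14 markers of type 2 innate lymphoid cells and 4 of 9 alpha-beta T cell markers. Tcrg-V5 was found in 16 of its 40 wildtype and 11 of its 28 knockout cells. The class II invariant chain gene Cd74, a gene of antigen-presenting cells, was at 9955 CPM in wildtype and 21470 CPM in the knockout. Genes of antigen presentation exceeded 1% of UMIs in 10 wildtype and 14 knockout cells, keratinocyte markers exceeded 2% in 15 and 6, and fibroblast markers exceeded 2% in 8 and 3. At least 3 type 2 genes were found in 15 and 3 cells, of which 5 and 3 lacked any CD3 UMI. Whether these were lymphocytes joined to other cells or cells of mixed content was not tested. Doublet scoring did not work alike in the libraries, calling 2 of 8875 wildtype and 217 of 8617 knockout cells, of which 0 and 4 were lymphocytes. Of the 5% of cells with the highest scores in each library, 20 wildtype and 10 knockout cells were lymphocytes. Separately, 18 of 222 and 21 of 197 lymphocytes, from all 4 clusters together, shared a droplet barcode with a cell of the other library. For comparison, 1211 droplet barcodes were in both libraries, which held 9179 and 8811 cells before the quality limits.

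Apart from that cluster, 4 knockout cells stood out and no wildtype cell did. In all, 3 cells of the alpha-beta T-like cluster held 141, 2605 and 3922 UMIs of B cell and plasma cell genes. They had no CD3 UMI and passed the rule through 4, 2 and 4 UMIs of Il2rb. Ighm alone gave 65, 1090 and 3557 UMIs in them. The remaining cell, in the dendritic epidermal T-like cluster, held 81 UMIs of mast cell genes, among them 29 of the protease gene Mcpt4, beside 18 CD3 UMIs. Values are therefore given over all lymphocytes and, for lists and for the genes whose values moved most, also over the 3 named clusters without these 4 cells, which left 182 wildtype and 165 knockout cells.

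The makeup of the lymphocytes differed between the libraries. Dendritic epidermal T-like cells were 44.1% of wildtype lymphocytes (37.5 to 50.9%) and 35.0% of knockout lymphocytes (28.4 to 42.1%). Type 17-like cells were 15.3% (10.8 to 20.7%) and 26.4% (20.4 to 33.1%). Both pairs of intervals overlap, the second only at its edge. Alpha-beta T-like cells were 22.5% (17.2 to 28.6%) and 24.4% (18.5 to 31.0%), and the mixed cluster was 18.0% (13.2 to 23.7%) and 14.2% (9.66 to 19.9%). Outside the mixed cluster, dendritic epidermal T-like cells were 53.8% and 40.8% and type 17-like cells 18.7% and 30.8%. These shares are not independent of one another, and genes that define the clusters also differed between the libraries, so the sizes are a description. With 1 library each, genotype cannot be told apart from any other difference between the mice or the dissociations.

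**Figure D2:**
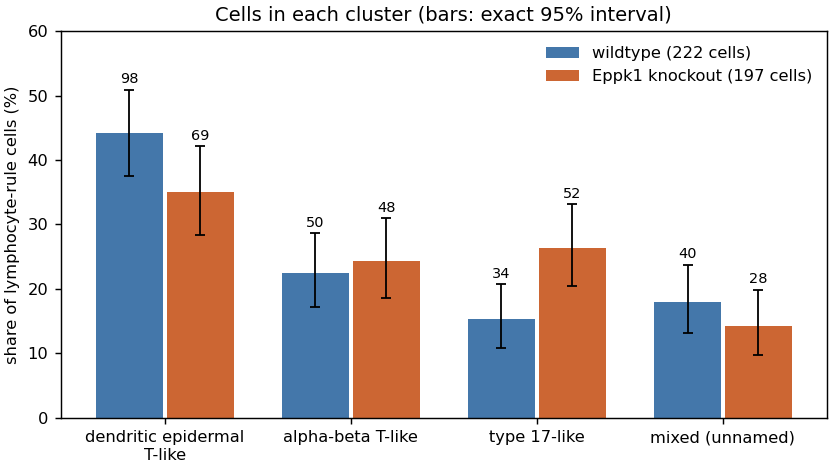
Share of each library's lymphocytes in the 4 clusters, in percent, for wildtype (222 cells) and Eppk1 knockout (197 cells). Error bars are exact binomial 95% intervals for counting error. The dendritic epidermal T-like share is 44.1% in wildtype and 35.0% in the knockout, and the type 17-like share 15.3% and 26.4%.

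Tcrg-V5, Il23r and Blk were also read over all lymphocytes, without the clusters, and ran the same way. They are leading genes of these clusters in the same cells. Their shares therefore follow the cluster sizes and give no separate support. Other markers of these kinds did not all run that way. Without thinning, the dendritic epidermal T cell marker Itgae was found in 97 of 222 wildtype and 101 of 197 knockout cells. The type 17 marker Maf was found in 34.7% and 32.0%. Neither read 1 kind alone. Itgae was found in at least 25% of the cells of every cluster, and Maf in every cluster but the dendritic epidermal T-like. Macrophages also held Maf, at 1242 and 1210 CPM. Tcrg-V5 was found in 111 of 222 wildtype cells and 70 of 197 knockout cells. After thinning it was found in 40.3% (33.4 to 47.5%) and 26.8% (20.5 to 33.9%). Il23r, which encodes the receptor subunit for IL-23 (6:67422932-67491855, minus strand), was found after thinning in 10.2% (6.35 to 15.3%) of wildtype and 22.3% (16.5 to 29.2%) of knockout cells, intervals that do not overlap. Blk was found in 8.67% and 16.8%. As a measure of free RNA in the droplets, Tcrg-V5, Il23r and Blk were each found in under 1% of thinned keratinocytes, fibroblasts and macrophages in both libraries. Gata3 and Cd4 could not be read in this way, since Gata3 was found in 65.4% and 65.8% of thinned keratinocytes and Cd4 in 10.8% and 4.60% of thinned macrophages, against 29.6% and 25.1%, and 6.63% and 4.47%, of thinned lymphocytes.

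To compare expression, UMIs were summed over the lymphocytes of each library and expressed as CPM. Eppk1 itself (15:76101481-76120195, minus strand) gave 97 UMIs in 34 wildtype cells and 12 UMIs in 9 knockout cells, 178.5 and 24.2 CPM, a log2 ratio of knockout over wildtype of -2.83 (-3.88 to -2.01). The mixed cluster held 78 of the 97 wildtype UMIs and 6 of the 12 knockout UMIs. In the named clusters 19 and 6 were left, a log2 ratio of -1.42 (-3.11 to -0.12). Thinned keratinocytes held an Eppk1 UMI in 79.3% and 27.1% of cells, thinned lymphocytes in 8.16% and 2.79%. Where the deletion lies relative to the probes was not given in the sources used here.

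Of 4328 genes with at least 50 UMIs over both libraries, 68 (1.57%) were at least 2-fold higher in the knockout library and 116 (2.68%) at least 2-fold lower, and the median log2 ratio was -0.02, with 47.1% of the genes above 0. In the 3 named clusters without the 4 cells, 26 of 2755 genes (0.944%) were that much higher and 31 (1.13%) lower, with a median of 0.02 and 51.9% of the genes above 0. This size limit is a description and not a test. Several of the widest differences came from few cells. Ighm gave 129 UMIs in wildtype and 4840 in the knockout, a log2 ratio of 5.36, but 104 and 105 UMIs in the named clusters, a ratio of 0.18. Retnla, a secreted protein of alternatively activated macrophages, gave 63 and 898 UMIs, of which 56 and 860 lay in the mixed cluster (3.95). In the named clusters 7 and 38 UMIs were left, in 7 and 17 cells, a ratio of 2.52 (1.42 to 4.01). It was also higher in knockout macrophages, at 5383 and 17530 CPM. Among the 10 lowest, Krt14 and Krt17, keratins of basal and hair follicle keratinocytes, Pkp1, a desmosome protein, and Ptgs2, the enzyme that starts prostaglandin synthesis, had log2 ratios of -1.82, -1.84, -2.32 and -2.79. In the named clusters Ptgs2 and Krt14 were at -0.23 and -0.18, Krt17 at -1.68 with 12 and 3 UMIs left, and Pkp1 at -1.22 with 6 and 2, and the intervals of all 4 include 0 there. Among the genes still past the 2-fold limit there were Rhou with 97 and 26 UMIs (-1.75 and -2.07), and Ppa1, a pyrophosphatase, with 95 and 26 UMIs (-1.72 and -1.93). Tyrobp, a signalling adaptor of NK-type receptors, was also still past it, with 79 and 205 UMIs (1.502). In the named clusters 36 and 74 of its UMIs were left, in only 9 and 15 cells, a ratio of 1.19. Macrophages also held Tyrobp, at 1169 and 1165 CPM. Stap1, an adaptor protein, gave 23 and 75 UMIs (1.81), and in the named clusters 12 and 36, fewer than the 50 needed there (1.71).

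**Figure D3:**
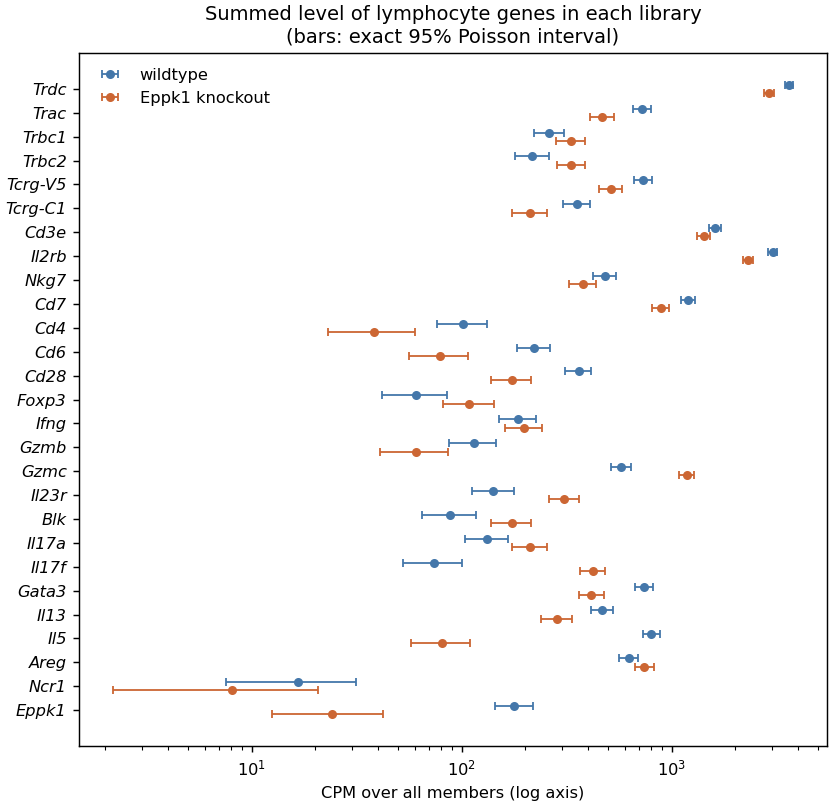
Level of marker genes summed over all lymphocytes of each library, in CPM on a log axis, with exact Poisson 95% intervals for counting error. Il23r is higher in the knockout library, Tcrg-V5, Cd6 and Cd28 are lower, and the intervals of these genes do not overlap between the libraries.

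Most genes of the T cell receptor and its signalling were slightly lower in the knockout library. Without the 3 CD3 genes that chose the cells, 21 of 27 measured genes were lower and 6 higher, with a median log2 ratio of -0.28 against -0.02 over all genes tested. Of all genes tested, 47.1% were higher. With them, 24 of 30 were lower, with a median of -0.27. As a description of the genes that chose the cells, Cd3e gave 877 and 704 UMIs, a ratio of -0.19, Il2rb gave 1647 and 1149 UMIs (-0.39), and Cd3d, Cd3g and Nkg7 had ratios of -0.31, -0.18 and -0.35. Trdc was at 3608 CPM in wildtype and 2906 CPM in the knockout (-0.31, -0.41 to -0.21). Trac gave 394 and 232 UMIs (-0.63, -0.87 to -0.39). Tcrg-V5 was at 732.6 and 514.2 CPM (-0.51, -0.74 to -0.28, and -0.68 in the named clusters), and the gamma constant region Tcrg-C1 (13:19214103-19217024, plus strand) gave 192 and 105 UMIs (-0.74, and -0.98 in the named clusters). Another gamma constant region, Tcrg-C4, was not lower, with 68 and 82 UMIs (0.40, -0.08 to 0.89, and -0.03 in the named clusters). Of 7 measured gamma-delta T cell markers 4 were higher and 3 lower, against 47.1% of all genes higher. Their median was 0.19, and -0.03 in the named clusters. The beta constant regions were higher, with 142 and 164 UMIs of Trbc1 (0.34) and 118 and 165 UMIs of Trbc2 (0.61). Tcrg-C1 and its near-identical copy Tcrg-C2, and likewise Trbc1 and Trbc2, were not told apart by sequence here, so the values of these constant regions are uncertain. Of 7 measured alpha-beta T cell markers, 5 were lower and 2 higher, and 3 of the lower ones were past the 2-fold limit, against 2.68% of all genes. Cd6 gave 120 and 39 UMIs (-1.48), Cd28 196 and 86 (-1.05) and Cd4 55 and 19 (-1.38). In the named clusters only Cd6 of 6 measured stayed past it, at -1.25. Cd28 was at -0.83 there, and Cd4, which macrophages also held, at -0.64 with an interval that includes 0 (-1.61 to 0.25).

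Type 17 genes were higher in the knockout library. Of 9 measured type 17 markers 8 were higher, against 47.1% of all genes, with a median log2 ratio of 0.67 and a summed level of 1189.1 and 2129.4 CPM. In the named clusters all 8 measured were higher, with a median of 1.18, against 51.9% of all genes and a median of 0.02, and 5 passed the 2-fold limit, against 0.944%. Il23r gave 77 UMIs in 30 wildtype cells and 153 in 50 knockout cells (1.12, 0.72 to 1.54, and 1.31 in the named clusters). Il17a (1:20730905-20734496, plus strand) gave 72 UMIs in 14 cells and 105 in 21 cells (0.67, 0.23 to 1.13). Its ratio in the named clusters was 1.47, and in the mixed cluster it gave 32 and 5 UMIs. Il17f, another cytokine of this kind, gave 40 UMIs in 10 cells and 209 in 16 cells (2.50), with 38% of the knockout UMIs in a single cell. When the knockout clusters were given the wildtype shares of cells, the median of the list was -0.058. Dendritic epidermal T cell markers ran the other way: 9 of 10 were lower, while 47.1% of all genes were higher. Their median was -0.21, or -0.36 in the named clusters, and their summed level was 8380.7 and 7001.1 CPM. None of the 10 passed the 2-fold limit, and over all lymphocytes Klrk1 and Fcer1g lay near 0, at -0.0073 and -0.016.

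The medians of type 2 genes and of keratinocyte markers depended on the mixed cluster. For comparison, 47.1% of all genes were higher over all lymphocytes and 51.9% in the named clusters. Of 8 measured type 2 markers 6 were lower in the knockout, with a median of -0.44, but in the named clusters 6 of 7 were higher, with a median of 0.37. Il5 gave 435 UMIs in 16 wildtype cells and 40 in 5 knockout cells, of which 410 and 35 lay in the mixed cluster. It stayed lower in the named clusters, with 25 and 4 UMIs (-2.34, -4.46 to -0.95), in 4 cells and 1 cell. Il13 gave 254 and 141 UMIs (-0.72), with 41.3% and 48.2% of them in a single cell. Its direction turned in the named clusters, with 35 UMIs in 20 cells and 49 in 22 cells (0.64, -0.0078 to 1.32). Keratinocyte markers were lower for 14 of 14 genes, with a median of -0.65 (10 of 10 and -0.70 without the genes that the rule limits), but 0.090 without the 5% of cells with the highest doublet scores, and summed levels of 6398.3 and 3496.5 CPM, of which Krt5 was the most abundant in wildtype. In the named clusters the median was -0.10, and the sums were 1886.2 and 1673.1 CPM. Langerhans and dendritic cell markers summed to 12760 and 21870 CPM, and in the named clusters to 449 and 819 CPM. Their median was 0.74, and Cd74, the only 1 measured in the named clusters, was at 0.87 there. Macrophage and monocyte markers summed to 782.3 and 1601 CPM, but to 382 and 379 CPM in the named clusters. B and plasma cell markers summed to 261.4 and 13784 CPM, in the knockout mostly from 3 cells of the alpha-beta T-like cluster.

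**Figure D4:**
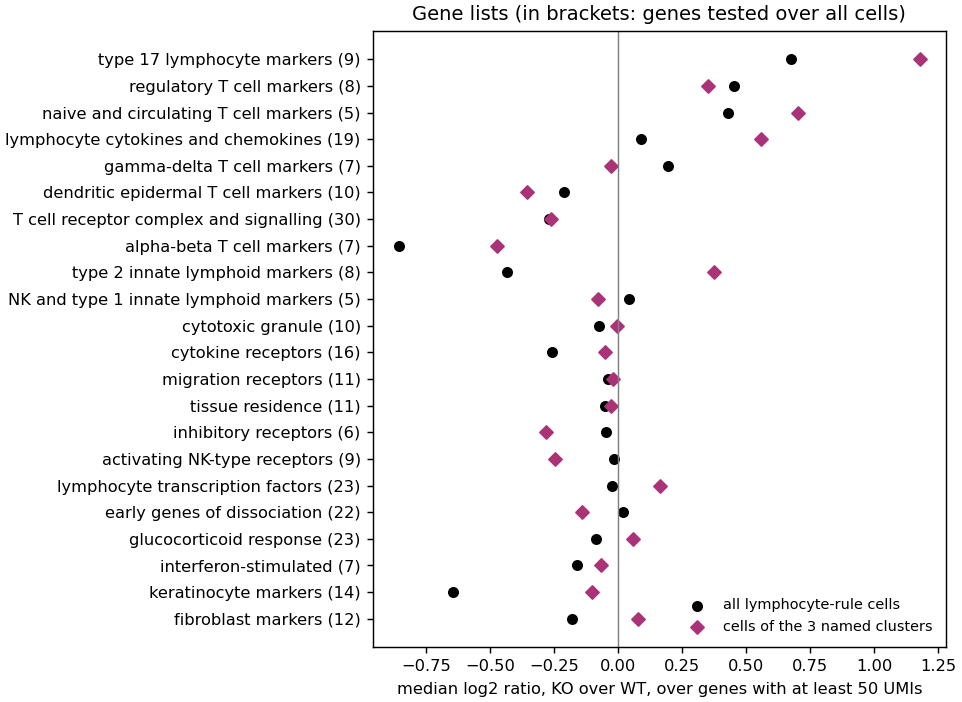
Median log2 ratio, knockout over wildtype, of each gene list over all lymphocytes and over the 3 named clusters without the 4 single cells. The type 17 list lies above 0 in both (0.67 and 1.18), the dendritic epidermal T list below 0 in both (-0.21 and -0.36), and the type 2 list changes side (-0.44 and 0.37).

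Several other lists had medians near that of all genes. Over all lymphocytes and in the named clusters, these were -0.08 and -0.0047 for cytotoxic granule genes, 0.04 and -0.08 for NK and type 1 innate lymphoid markers, -0.05 and -0.03 for tissue residence genes, and -0.04 and -0.02 for migration receptors. Other lists were near it over all lymphocytes and farther from it in the named clusters. Inhibitory receptors were at -0.05 and -0.28, activating NK-type receptors at -0.02 and -0.25, and lymphocyte transcription factors at -0.03 and 0.16. Early genes of dissociation were at 0.02 and, with 13 of 21 lower in the named clusters, at -0.14 there. The next lists lay above the median of all genes over all lymphocytes, in the named clusters or in both. Of all genes, 47.1% were higher over all lymphocytes and 51.9% in the named clusters. Naive and circulating T cell markers were higher for 4 of 5 genes with a median of 0.43, and for 3 of 3 with 0.70 in the named clusters. Regulatory T cell markers were higher for 6 of 8 genes with a median of 0.45, and Foxp3 gave 33 UMIs in 7 wildtype cells and 54 in 11 knockout cells (0.83, 0.19 to 1.51). Lymphocyte cytokines and chemokines had a median of 0.09 over all cells and 0.56 in the named clusters, where 13 of 16 were higher. Ifng gave 101 and 98 UMIs. Mki67, a marker of dividing cells, gave 18 and 19.

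The libraries were next compared within each named cluster. In the dendritic epidermal T-like cluster 10 of 1254 genes (0.797%) were at least 2-fold higher in the knockout and 15 (1.2%) lower. Trdc was at 8356 CPM in wildtype and 8306 CPM in the knockout, a ratio of -0.01 (-0.13 to 0.11), and Tcrg-V5 at 1971 and 1815 CPM (-0.12). Tcrg-C1 stayed lower, at 906.4 and 514.6 CPM (-0.81, -1.28 to -0.37). Trac gave 127 UMIs in 36 of 98 cells and 25 UMIs in 15 of 68 cells (-1.65, -2.35 to -1.05). Areg, the growth factor amphiregulin, gave 234 and 311 UMIs, 1326 and 2808 CPM (1.08, 0.83 to 1.33), in 46 and 37 cells, and no cell held more than 46 of them. Id2, a regulator that innate and resident lymphocytes use, was at 1626 and 839.6 CPM (-0.95). Rhou gave 74 and 15 UMIs (-1.59) and Ppa1 49 and 8 (-1.87).

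In the alpha-beta T-like cluster 7 of 747 genes (0.937%) were higher by that much and 17 (2.28%) lower. The lowest ratios were those of the heat shock genes Hspa1a, with 638 and 126 UMIs (-2.40), and Hspa1b, with 515 and 163 (-1.72), near-identical copies that tissue dissociation is known to induce. Over all lymphocytes Hspa1a was at -0.50 and in the named clusters at -1.02, and their part in the other differences was not tested. The cluster also held the 7 and 8 NK-like cells, so ratios are given with and without them. Cd6 gave 102 UMIs in 25 of 50 wildtype cells and 38 UMIs in 16 of 45 knockout cells, 1135 and 403.1 CPM (-1.48, -2.07 to -0.94, and -1.47 without the NK-like cells). Cd28 gave 131 and 67 UMIs (-1.03, -1.48 to -0.60, and -1.02), the costimulatory receptor Icos 310 and 197 (-0.72 and -0.70), and Trac was at 1925 and 1390 CPM (-0.47 and -0.38). Ctla4 gave 80 and 78 UMIs and Ifng 86 and 83. Ccl5 was at -0.06 with the NK-like cells and at -0.80 (-1.36 to -0.26) without them. Without the NK-like cells, 1 of 43 wildtype and 2 of 37 knockout cells lacked CD3, Trdc and Trac. The granzyme gene Gzmc gave 160 and 376 UMIs (1.16), but in only 4 and 7 cells, with 208 of the knockout UMIs in a single cell.

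In the type 17-like cluster 10 of 559 genes (1.79%) were higher by that much and 10 (1.79%) lower. Il23r was at 1058 and 1545 CPM (0.54, 0.10 to 1.005). Il17a gave 40 UMIs in 10 of 34 wildtype cells and 97 UMIs in 18 of 52 knockout cells (0.72, 0.19 to 1.30). Il17f gave 20 UMIs in 6 cells and 207 in 15 cells (2.79, 2.16 to 3.57), with 80 in a single knockout cell. Il22 gave 1 and 31 UMIs, all 31 in a single cell. Fos and Nr4a1, early genes that receptor signalling and tissue dissociation both induce, were lower in the knockout, with 158 and 78 UMIs (-1.56) and 287 and 198 UMIs (-1.08), as was Hspa1a with 186 and 135 UMIs. Their part in the other differences was not tested. Tcf7, a transcription factor of T cell development, gave 14 and 49 UMIs (1.23), and Gata3 52 and 25 (-1.59).

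**Figure D5:**
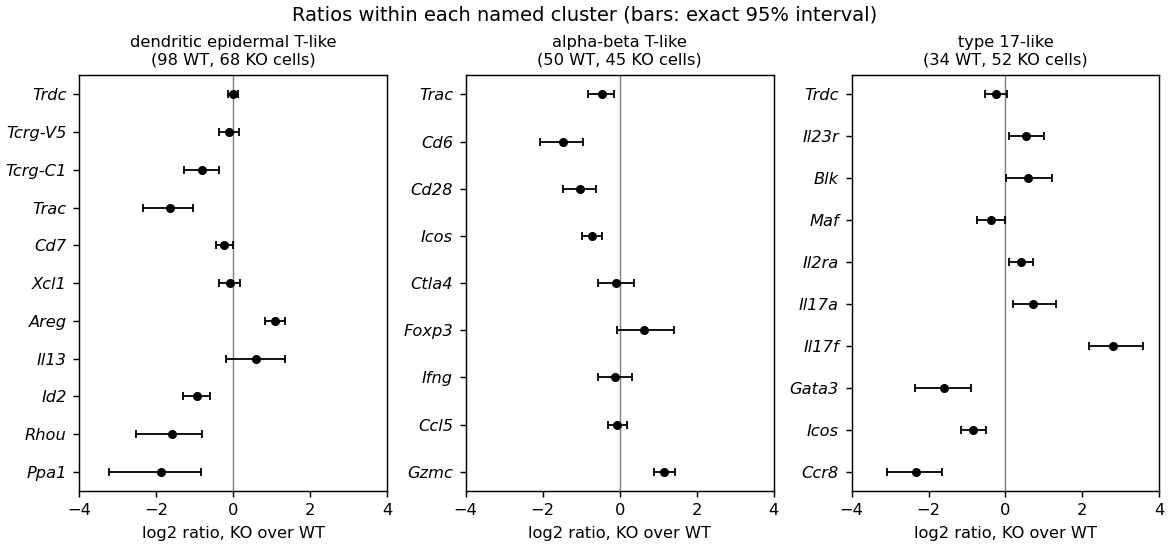
Log2 ratio, knockout over wildtype, of marker genes within each of the 3 named clusters, with exact 95% intervals for counting error. Trdc and Tcrg-V5 lie near 0 in the dendritic epidermal T-like cluster, Cd6 and Cd28 lie below 0 in the alpha-beta T-like cluster, and Il17f lies above 0 in the type 17-like cluster.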

How the data were processed

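Per the file headers and the labels, the deposited files hold UMI counts per gene and cell, made by the authors with Cell Ranger 8.0.1 on mm10 (GRCm38). Cells outside 200 to 45000 UMIs or 100 to 7500 genes, or above a mitochondrial share of 10%, were left out. The members, gene lists and named genes were chosen with earlier results of these data known, and the rule for naming clusters was set after the clusters were seen. The 13 mitochondrial genes were left out of sums. Log2 ratios had 0.5 UMI added to each sum and exact conditional binomial intervals. Sums had exact Poisson intervals and shares Clopper-Pearson intervals, all covering counting error only. Members were clustered with Seurat 5.3.0 in R 4.3.3 (log-normalization, 2000 variable features, 20 components, RPCA with a k.weight of 50, Louvain at a resolution of 0.5). Doublets were scored with Scrublet in scanpy 1.11.5 and none were removed. The 2-fold limit and the intervals of the ratios were tested on simulated gene sums, drawn with the counting error that the intervals assume. The choice of cells, thinning, clustering and doublet scoring were not simulated. Named genes were Eppk1, the 5 rule genes, the 10 highest and 10 lowest ratios, the 4 most abundant genes of each list, the 3 leading genes of each cluster and fixed markers of kinds of lymphocyte. Genes outside this rule (Icos, Il22, Ccr6, Cd163l1, Klra4, Slamf1, Hspa1a, Itgae, Tnfrsf4, and Il4 and the granzymes at 0) were chosen after their values were seen. Alternatives tried were other count minimums, size limits, rules, thinning depths and clusterings, and leaving out the mixed cluster or single cells of other lineages. The last of these, lists without the genes of the rule, and the alpha-beta T-like cluster without NK-like cells, were chosen after seeing the data. The values of 1 type 17 marker are not reported here, and the counts and medians of lists that hold it include it.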

Additional observations from a re-analysis of the deposited data

Results flagged for a closer look

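Cd28 had a log2 ratio of -1.05 over lymphocytes and 1.16 in the macrophage gate, where it gave 68 and 126 UMIs. Nid2 was at -1.37 over lymphocytes and 1.07 in the fibroblast gate. Nr4a1 was at 1.15 in the dendritic epidermal T-like cluster, with 82 and 114 UMIs, and at -1.08 in the type 17-like cluster. Slamf1, a receptor of T cells, was at -1.52 in the alpha-beta T-like cluster, with 53 and 19 UMIs, and at 1.07 in the type 17-like cluster, with 14 and 44 UMIs. Each was picked out because the ratio had opposite signs in 2 kinds of cell. The differences were not tested, since each genotype was 1 library.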

How the results depend on the processing

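Each genotype was 1 library, so leaving out a replicate was not possible. No paired analysis was possible because each group holds 1 sample and no result comes from a test. With at least 2 CD3 UMIs as the only rule, the shares of cells were 1.98% and 1.73%. Genes at least 2-fold higher numbered 36 without the mixed cluster, 26 without it and the 4 single cells, 229 with a minimum of 20 UMIs, 27 with 100, 1572 with none, and 393 at a log2 limit of 0.5. Genes lower numbered 77 with the limits on other cells halved, 40 and 31 without the mixed cluster and without both, 318, 59 and 1882 at the same minimums, and 495 at 0.5. Ighm was at -0.016 with CD3 alone, Krt17 at 0.15 and Krt15 at 0.82 without the top 5% of doublet scores, Krt15 at 0.35 with halved limits, and Krt5 at 0.062 and 0.16 without the mixed cluster and without both. List medians were -0.058 for type 17 with clusters weighted by wildtype shares, -0.98 for CD8 and -0.016 for B and plasma cells with CD3 alone, 0.29 and 0.37 for type 2 without the mixed cluster and without both, and for keratinocyte markers 0.090 without the top doublet scores, -0.18 without the mixed cluster and -0.10 without both. Tcrg-V5 was found in 26.1% of wildtype cells thinned to 500 UMIs, and in 50% and 35.5% unthinned, and Il23r in 15.2% of knockout cells at 500 UMIs. The dendritic epidermal T-like share was 53.8% of wildtype cells outside the mixed cluster. Of gene ratios 1754 stayed within counting error, 281 moved and 6 reversed, of list medians 436, 24 and 6, of thinned shares 311 stayed and 89 moved, and of counts of genes 23 stayed within 1.5 times and 13 did not. The cause was not tested. Below 50 UMIs in both libraries together, intervals were wide and genes were left out of counts and medians.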

Other observations

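At the higher resolution the dendritic epidermal T-like cells split into a group of 55 wildtype and 34 knockout cells and a group of 43 and 35 cells. Ighm UMIs were present in cells of the dendritic epidermal T-like cluster of both libraries, with 85 UMIs in 46 of 98 wildtype cells and 70 in 37 of 68 knockout cells. In the type 17-like cluster Ighm gave 0 and 3 UMIs. Igkc, the light chain gene, gave 0 and 6 UMIs in the dendritic epidermal T-like cluster.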
